A study of Sus scrofa with 2 samples.

Results

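GAP43, DCX, CRMP1, DPYSL2, DPYSL3, DPYSL4, DPYSL5, STMN2, STMN4 and TUBB3 encode proteins of the growth cone and of the microtubules that fill it. These 10 genes, of 25880 in the count tables, were taken by name, and all 10 had a row in both tables. They were described across the stages of the olfactory neuronal lineage in nuclei from newborn pigs. The data were 1 single-nucleus library from the olfactory neuroepithelium of a CFTR knockout piglet and 1 from a wild type piglet, both captured with 10x Genomics droplets from frozen sections. CFTR encodes an epithelial anion channel, whose loss causes cystic fibrosis. The labels give neither breed nor the allele that was knocked out. With 1 library per genotype no difference was tested, and each value stands for 1 animal.

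The olfactory epithelium makes sensory neurons throughout life: globose basal cells divide, their daughters become immature neurons that send an axon to the olfactory bulb, and mature neurons then carry odorant receptors on cilia. The tip of the growing axon, the growth cone, steers by remodelling its membrane skeleton and its microtubules. GAP43 acts at the growth cone membrane, doublecortin (DCX) and the stathmins STMN2 and STMN4 bind microtubules or free tubulin, TUBB3 is a neuronal beta tubulin, and the collapsin response mediator proteins (CRMP1 and DPYSL2 to DPYSL5) pass semaphorin signals on to the cytoskeleton.

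After filtering, 5761 knockout nuclei (median 2093 UMIs) and 4536 wild type nuclei (median 2966 UMIs) remained; a UMI (unique molecular identifier) marks 1 captured transcript. CFTR had 12.7 CPM, the UMIs of a gene per 1e+06 UMIs of a group (95% interval 11 to 14.6, 192 UMIs), in the knockout library and 88.9 CPM (84.5 to 93.5, 1523 UMIs) in the wild type library. The mitochondrial share of UMIs was 1.31% in the knockout library and 2.83% in the wild type library. The libraries shared 8 cell barcodes. All intervals are exact, cover counting error only, and say nothing of how animals vary.

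Stages were clusters named from marker genes, with the 10 genes kept out of the clustering and out of the marker lists. Precursor or globose basal-like nuclei (117 knockout, 182 wild type) carried NEUROD1, HES6, KIT, TOP2A, EZH2 and CENPF. Immature neuron-like nuclei (536 knockout, 751 wild type) formed cluster 9, with TEX15, PURG, RUNX1T1 and TRIB3, and cluster 8, with GNG8, ABLIM1 and TRIB3. Mature neuron-like nuclei (935 knockout, 1010 wild type) carried transduction genes such as CNGA4, GNG13, ADCY3 and GNAL in clusters 2 and 3. OMP, the usual mature marker, had no row under that symbol in the counts, so the class could not be checked with it. The summed level of the precursor markers was 2163, 233 and 118 CPM from precursor to immature to mature nuclei in the knockout library and 2314, 276 and 104 CPM in the wild type library. The summed mature markers ran the other way, at 1224, 2004 and 6199 CPM in the knockout library and 1129, 1901 and 6261 CPM in the wild type library. The sum of the immature list was highest in immature nuclei of both libraries. It was 742, 2457 and 720 CPM in knockout nuclei and 1030, 3702 and 953 CPM in wild type nuclei. The clusters were named from these same lists, so the sums describe the stages and cannot check their names. PURG alone gave 1006 CPM of the knockout and 1863 CPM of the wild type immature sum. With the libraries pooled, GNG8, TEX15, PURG, RUNX1T1, ABLIM1 and TRIB3 were highest in clusters 9 and 8. CXCR4 and SOX11 were highest in precursors, with CXCR4 at 90.7 CPM there, 40.2 in cluster 9 and 13.2 in cluster 8. NHLH1 had at most 4 UMIs per cluster and NHLH2 had none.

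Most of the growth cone and microtubule genes had their highest level in immature neurons. DPYSL4 was too rare to place, with 11 UMIs in all knockout nuclei and 21 in all wild type nuclei. Of the other 9, all of which had at least 20 UMIs in the lineage, 9 of 9 in the knockout library and 7 of 9 in the wild type library were highest in the immature class. The wild type exceptions were DCX, highest in mature nuclei, and DPYSL5, highest in precursors. In the knockout library 2 ratio intervals held 0. They were DCX for mature over immature nuclei (-0.24 to 0.16) and DPYSL5 for immature over precursor nuclei (-0.10 to 0.34). In the wild type library that of STMN4 for mature over immature nuclei did so (-0.28 to 0.14). The share of all genes highest in the immature class was not counted. The median log2 ratio of mature over immature nuclei was -1.28 over the 9 genes in the knockout library and -0.75 in the wild type library, where all genes with at least 20 UMIs had medians of -0.01 and -0.07. A log2 ratio of -1 or below was found for 6 of 9 genes in the knockout library, against 7.81% of the 11669 genes compared there, and for 3 of 9 in the wild type library, against 12.6% of 12767 genes. Immature over precursor nuclei gave medians of 1.05 in knockout nuclei and 0.76 in wild type nuclei, with 7 of 9 and 2 of 9 genes at 1 or above, against 10.7% and 10.4% of all genes compared. The stages differ by construction in their marker genes, so these ratios are a description.

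**Figure D1:**
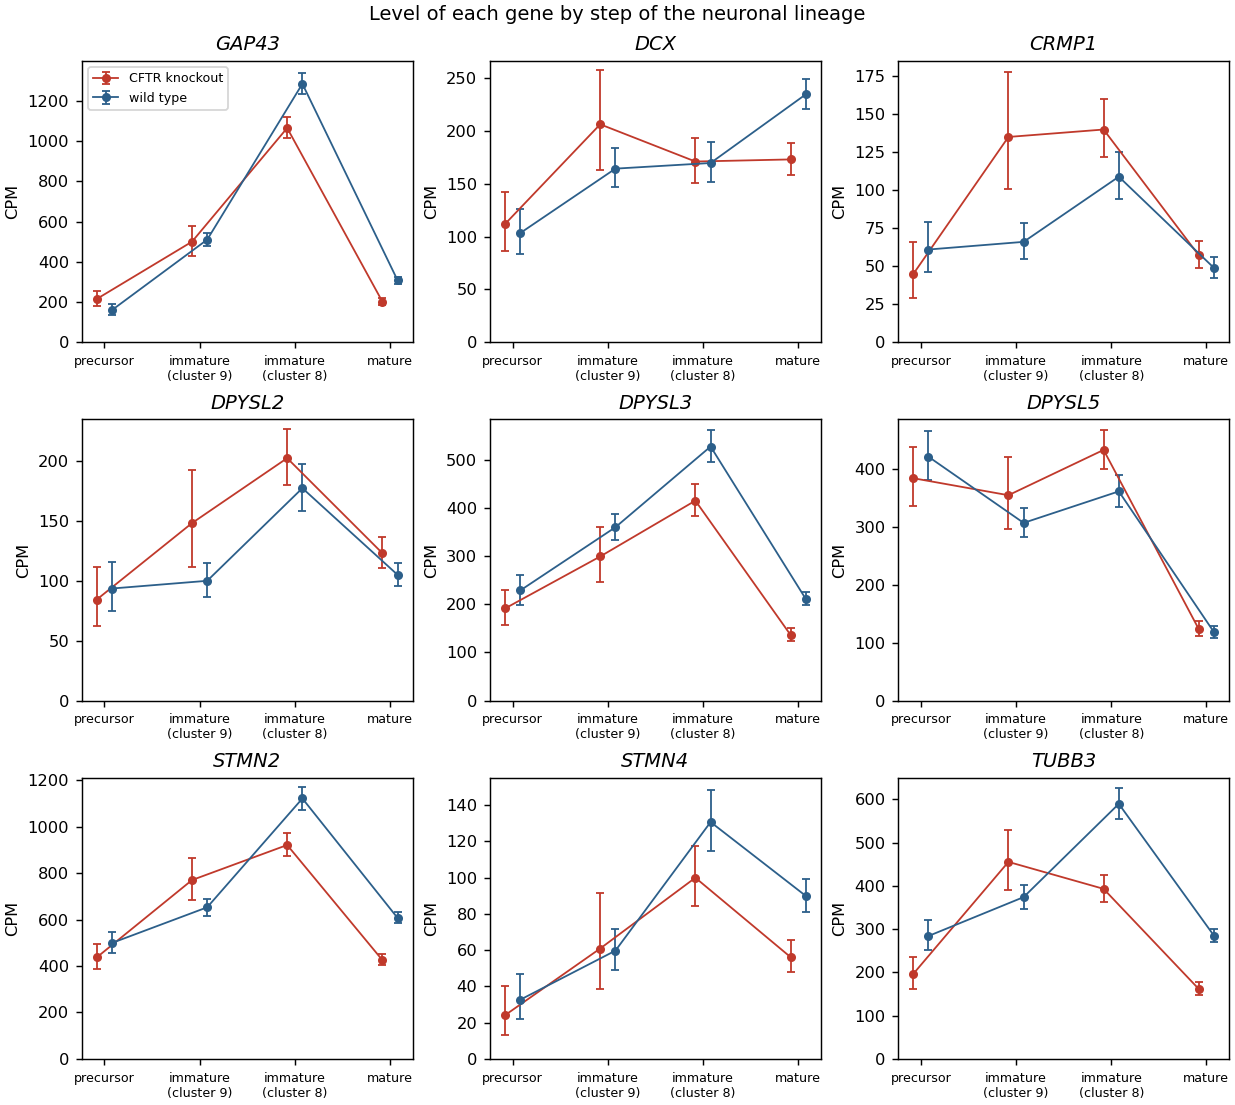
Level in CPM (each panel has its own axis from 0) of the 9 genes with enough UMIs, in precursor nuclei, the immature clusters 9 and 8 and mature nuclei, with exact 95% intervals; red points are the CFTR knockout library and blue points the wild type library. GAP43 stood at 1066 CPM (knockout) and 1286 CPM (wild type) in cluster 8, while DCX and DPYSL5 in wild type do not share that shape. In the knockout library DCX (206 CPM) and TUBB3 (455 CPM) were highest in cluster 9. Knockout DPYSL5 was highest in cluster 8 (433 CPM) but already stood at 384 CPM in precursors.

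GAP43, a growth cone membrane phosphoprotein that has long been used to mark immature olfactory neurons in rodents, had the steepest profile of the 9 genes in both libraries. In the knockout library it stood at 215 CPM (179 to 256, 125 UMIs) in precursors, 952 CPM (909 to 998, 1790 UMIs) in immature nuclei and 202 CPM (186 to 219, 598 UMIs) in mature nuclei. In the wild type library it stood at 160 CPM (135 to 188), 891 CPM (861 to 922) and 308 CPM (292 to 325) over the same stages. None of these intervals overlapped between the immature class and its neighbours in either library. The log2 ratio of mature over immature nuclei was -2.24 (-2.37 to -2.10) in knockout nuclei and -1.53 (-1.62 to -1.44) in wild type nuclei, and that of immature over precursor nuclei was 2.15 (1.88 to 2.42) and 2.48 (2.24 to 2.73). In the knockout library the mature level lay within the interval of the precursor level, whereas in the wild type library the mature level lay above that of precursors.

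The stathmins bind tubulin dimers and keep microtubules dynamic, and STMN2 is the form best known from growing axons. STMN2 stood at 437, 891 and 426 CPM in precursor, immature and mature nuclei of the knockout library, and at 499, 883 and 607 CPM in those of the wild type library. Its mature level was thus close to its precursor level in the knockout library (403 to 450 against 385 to 495 CPM) and above it in the wild type library (584 to 631 against 455 to 547 CPM). STMN4, a related neuronal stathmin, stood at 24.1 CPM (14 UMIs), 92.0 and 56.1 CPM in the knockout library and at 32.6 CPM (30 UMIs), 94.5 and 89.9 CPM in the wild type library. Mature over immature nuclei gave STMN4 a log2 ratio of -0.71 (-1.03 to -0.40) in the knockout library and of -0.07 (-0.28 to 0.14) in the wild type library. The wild type ratio pools opposite values, since mature nuclei were lower than cluster 8, at -0.54 (-0.77 to -0.30), and higher than cluster 9, at 0.59. STMN2 overlaps an unnamed gene in the RefSeq annotation of assembly Sscrofa11.1 (LOC110260269), and the sources used here do not say whether counting used strand.

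TUBB3, a beta tubulin made mainly in neurons, stood at 196, 405 and 162 CPM in precursor, immature and mature nuclei of the knockout library. In wild type nuclei it stood at 284, 479 and 285 CPM, with overlapping intervals in mature and precursor nuclei (269 to 301 and 251 to 321 CPM). Mature over immature nuclei gave log2 ratios of -1.33 (-1.49 to -1.16) in knockout nuclei and -0.75 (-0.86 to -0.65) in wild type nuclei. Beta tubulin genes are nearly identical in much of their sequence, and how reads that match several genes were treated is not known, so the TUBB3 values are uncertain.

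DCX, the microtubule-binding protein of migrating and young neurons, did not share the peak in immature nuclei in both libraries. It stood at 112 CPM (86.4 to 143), 178 CPM (160 to 198) and 173 CPM (158 to 189) from precursor to immature to mature nuclei in the knockout library. In wild type nuclei it stood at 103 CPM (83.6 to 126), 167 CPM (154 to 181) and 235 CPM (221 to 250). The log2 ratio of mature over immature nuclei had an interval that held 0 in the knockout library, at -0.04 (-0.24 to 0.16), and was above 0 in the wild type library, at 0.49 (0.35 to 0.64). The share of nuclei with a DCX UMI was 14.9% of mature and 15.9% of immature knockout nuclei after each nucleus was thinned to 1000 UMIs, and 17.7% of mature and 11.6% of immature wild type nuclei. DCX overlaps LOC106507011 in the same annotation, and reads of that gene could not be set apart.

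The collapsin response mediator proteins did not move as 1 family. CRMP1 had low levels with a peak in immature nuclei, at 44.8 CPM (26 UMIs), 139 and 57.2 CPM over the 3 stages in the knockout library and at 60.9 CPM (56 UMIs), 87.0 and 48.8 CPM in the wild type library. DPYSL3 stood at 191, 391.6 and 136 CPM in the knockout library and at 229, 442 and 211 CPM in the wild type library, with log2 ratios of mature over immature nuclei of -1.52 (-1.70 to -1.35) and -1.07 (-1.18 to -0.95). It overlaps the kinase gene STK32A in the RefSeq annotation. DPYSL2, which was first found as a mediator of semaphorin-induced collapse of the growth cone and which binds tubulin, had the mature level nearest to its immature level within the family, at 84.4, 192 and 123 CPM in knockout nuclei and 93.6, 138 and 105 CPM in wild type nuclei.

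DPYSL5 was the early member. It stood at 384 CPM (335 to 438) in precursors, 417 CPM (388 to 447) in immature nuclei and 123 CPM (111 to 137) in mature nuclei of the knockout library. In wild type nuclei it stood at 421 CPM (380 to 465), 334 CPM (315 to 353) and 118 CPM (108 to 129). The log2 ratio of immature over precursor nuclei was 0.12 (-0.10 to 0.34) in the knockout library, an interval that holds 0, and -0.34 (-0.50 to -0.17) in the wild type library. Mature nuclei were far below both, with log2 ratios over immature nuclei of -1.76 (-1.94 to -1.58) in knockout nuclei and -1.50 (-1.65 to -1.35) in wild type nuclei. Precursors also gave DPYSL5 the highest share of nuclei with a UMI among the 10 genes in the knockout library after thinning, at 36.5% (27.7% to 46.0%), and 31.1% (24.3% to 38.5%) in the wild type library. DPYSL4 had 7 UMIs in the knockout lineage and 14 in the wild type lineage, and no stage of either library had more than 6.

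The immature class held a step of its own. Cluster 9, in which PURG stood at 4046 CPM (knockout) and 3494 CPM (wild type), lay before cluster 8 by diffusion pseudotime, a distance along the graph of nuclei from the precursors, with medians of 0.865 and 0.871. The order is a close call, and the mature markers were split. Their sum was slightly higher in cluster 9 (2041 CPM) than in cluster 8 (1863 CPM). SLC8A1 alone stood at 844 CPM in cluster 9 and 390 CPM in cluster 8. ADCY3, GNAL, STOML3 and CARTPT were also higher in cluster 9, by less. The other mature markers, CNGA2, CNGA4, CNGB1, GNG13, S100A5, RTP1, RTP2 and UMODL1, were higher in cluster 8. GAP43 had the largest ratio between them of the 9 genes, at 1066 CPM (1015 to 1120) in cluster 8 and 500 CPM (431 to 577) in cluster 9 of the knockout library, and at 1286 CPM (1235 to 1339) and 511 CPM (479 to 544) in the wild type library. Cluster 8 over cluster 9 gave log2 ratios of 1.09 (0.87 to 1.32) and 1.33 (1.22 to 1.44) for it. In the knockout library 1 of 9 genes, GAP43, and in the wild type library 2 of 9, GAP43 and STMN4, were at 1 or above. Of all genes compared 8.1% and 2.95% were, so the knockout count was near the background. The intervals of 6 of 9 genes in the knockout library and 8 of 9 in the wild type library lay above 0. Among them were STMN4 at 0.71 and 1.13, DPYSL3 at 0.47 and 0.55 and STMN2 at 0.26 and 0.78. The share of all genes with an interval above 0 was not counted. The median of the 9 genes was 0.29 and 0.72, where that of all genes compared was 0.10 and 0.03. The interval of DCX held 0 in both libraries (-0.64 to 0.11 and -0.18 to 0.28), and those of CRMP1 and TUBB3 did so in the knockout library. In cluster 9 of the wild type library CRMP1 and DPYSL2 still stood at 66.0 and 100 CPM, within the intervals of their precursor levels (46.0 to 79.1 and 74.9 to 116 CPM), while GAP43, STMN2, DPYSL3, DCX, STMN4 and TUBB3 stood above their precursor levels with intervals of the ratio that left out 0. In the knockout library cluster 9 over precursors gave CRMP1 a log2 ratio of 1.59 (0.88 to 2.33), the highest of the 9 genes, and DPYSL2 one of 0.81 (0.23 to 1.40).

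Along pseudotime the genes peaked in different windows. The lineage nuclei of both libraries were cut into 10 bins of equal numbers of nuclei, of which bin 1 held mostly precursors, bins 2 to 4 immature nuclei and bins 6 to 10 mature nuclei. In the knockout library 9 of 9 genes had their highest level in bins 2 to 5, and in the wild type library 8 of 9. With bins made within each library the counts were 8 and 8, with knockout DCX highest in bin 8. With bins of the mature marker share they were 8 and 6, with DPYSL5 highest in bin 1 in both libraries. In wild type nuclei STMN4 was then highest in bin 8 and DCX in bin 9. The share of all genes highest in bins 2 to 5 was not counted. GAP43 reached 1214 CPM (1120 to 1315) in bin 3 of the knockout library and 1229 CPM (1154 to 1307) in bin 3 of the wild type library, and it was down to 142 and 201 CPM in bin 10. In bin 4 the libraries stood apart, at 975 CPM (887 to 1068) in knockout nuclei and 1226 CPM (1153 to 1302) in wild type nuclei, and in bin 5 at 525 CPM (455 to 604) and 779 CPM (725 to 836). Bin 5 held 63 immature and 66 mature knockout nuclei but 68 immature and 156 mature wild type nuclei, so the higher wild type level there stood beside a larger mature part. STMN2 peaked at 1054 CPM in bin 2 of knockout nuclei and at 1117 CPM in bin 4 of wild type nuclei. DCX in the wild type library was highest late, at 270 CPM (235 to 309) in bin 9, against 116 CPM in bin 1. DPYSL5 began high, at 389 CPM in bin 1 of knockout nuclei and 347 CPM in that of wild type nuclei. It then peaked at 501 CPM (449 to 557) in bin 2 of knockout nuclei. In wild type nuclei its peak was 367 CPM (327 to 411) in bin 3. In bin 10 its levels were 79.0 and 83.8 CPM.

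**Figure D2:**
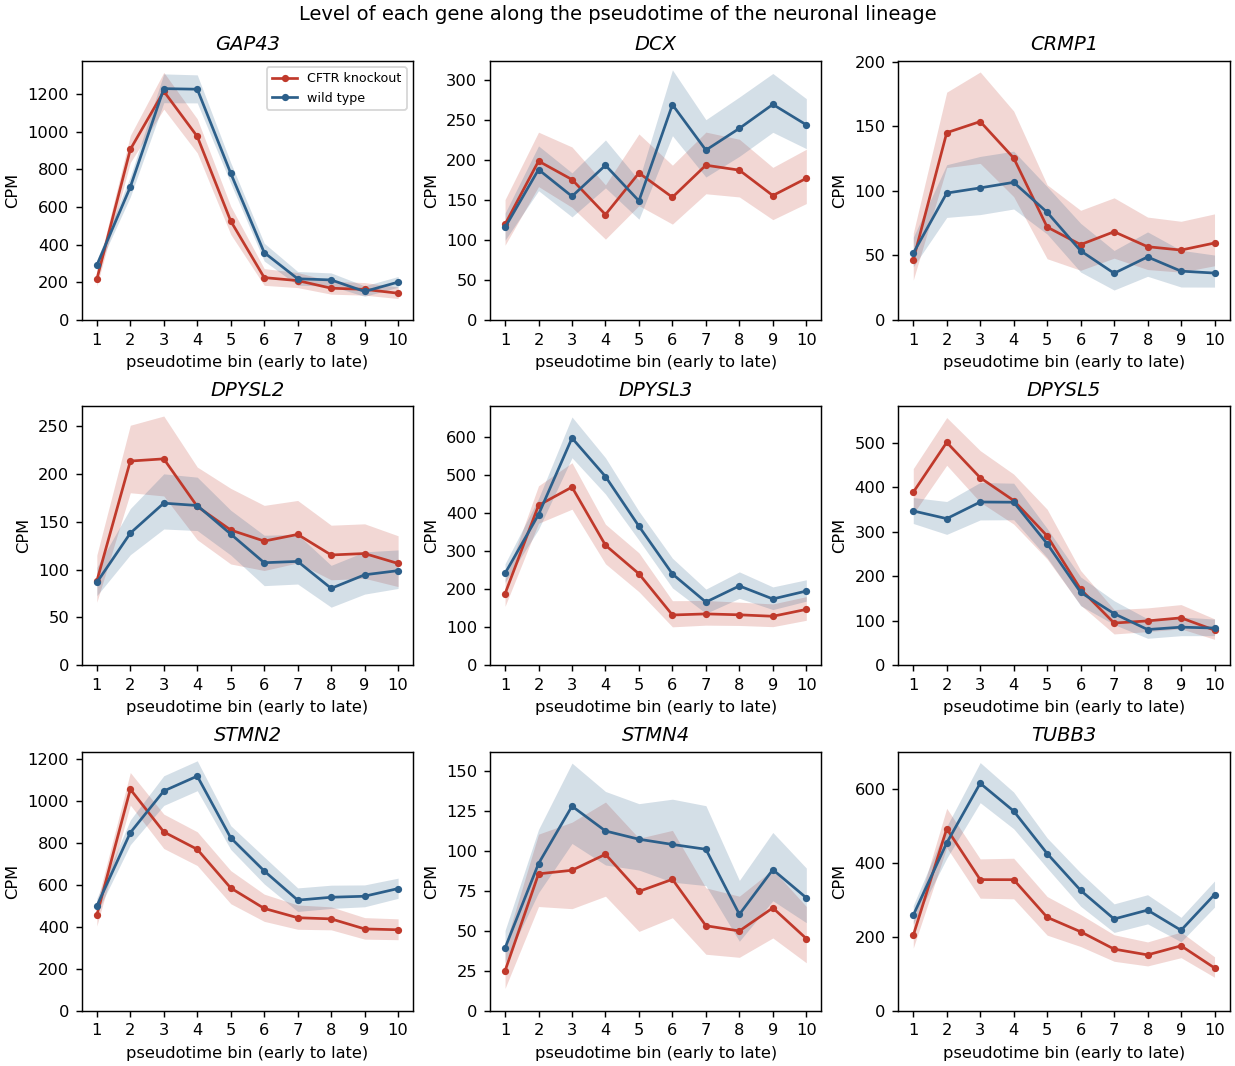
Level in CPM of 9 genes over 10 bins of pseudotime from early (1) to late (10), with shaded exact 95% intervals; red is the CFTR knockout and blue the wild type library. GAP43 peaked in bin 3 in both libraries (1214 and 1229 CPM), whereas wild type DCX was highest in bin 9 (270 CPM).

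Nucleus by nucleus, the genes were seen together in immature neurons close to the rate their single shares give. After each nucleus was thinned to 1000 UMIs, leaving out 19 knockout and 18 wild type immature nuclei that were shallower, GAP43 had a UMI in 50.5% (46.1% to 54.9%) of immature knockout nuclei and 55.8% (52.1% to 59.4%) of immature wild type nuclei. Without thinning the shares were 76.7% and 83.5%. STMN2 was seen in 57.4% and 59.9% after thinning, DPYSL3 in 32.3% and 35.5% and DPYSL5 in 30.9% and 30.8%. TUBB3 had the widest gap between the libraries, at 28.2% (24.4% to 32.3%) in knockout nuclei and 42.4% (38.8% to 46.1%) in wild type nuclei. Free RNA gives UMIs in nuclei that do not make a transcript, and the level it can reach was read from macrophage-like and endothelial-like nuclei, whose median depths were 1370 and 2107.5 UMIs in the knockout library and 2346 and 2170.5 UMIs in the wild type library, against 3036 and 3733 UMIs in immature nuclei. There, after the same thinning, GAP43 had a UMI in 6.58% and 3.51% of knockout nuclei and in 10.1% and 4.35% of wild type nuclei. STMN2 had 9.21% and 12.3% of knockout nuclei and 23.2% and 15.2% of wild type nuclei in the same types. TUBB3 had 17.1% and 12.3% of knockout nuclei and 26.1% and 10.9% of wild type nuclei, and DCX 1.32% and 1.75% of knockout nuclei and 2.90% and 2.17% of wild type nuclei. The shares of mature nuclei with a TUBB3 UMI were 15.6% for knockout and 23.6% for wild type. They lay below those of macrophage-like nuclei and above those of endothelial-like nuclei. The part of background in them was not tested.

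At least 3 of the 10 genes were seen in 50.7% (46.3% to 55.1%) of thinned immature knockout nuclei and 53.5% (49.8% to 57.1%) of immature wild type nuclei. In cluster 8 the shares were 51.5% (46.7% to 56.4%) in knockout nuclei and 64.7% (60.2% to 69.0%) in wild type nuclei, and in cluster 9 they were 46.7% (36.3% to 57.4%) and 32.7% (27.0% to 38.8%). Precursors had 20.9% in both libraries, mature nuclei 11.5% and 19.3%, and sustentacular-like nuclei, the support cells of the epithelium, 0.710% and 1.37%. Within cluster 8 the share of nuclei with both GAP43 and STMN2 was 32.5% in the knockout library, where the product of the single shares was 31.9%, and 44.1% in the wild type library, where the product was 43.9%. Over all pairs with an expected count of at least 10 nuclei in cluster 8, the observed share over the product had a median of 1.01 (31 pairs, 0.527 to 1.38) in knockout nuclei and 1.02 (31 pairs, 0.701 to 1.55) in wild type nuclei.

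**Figure D3:**
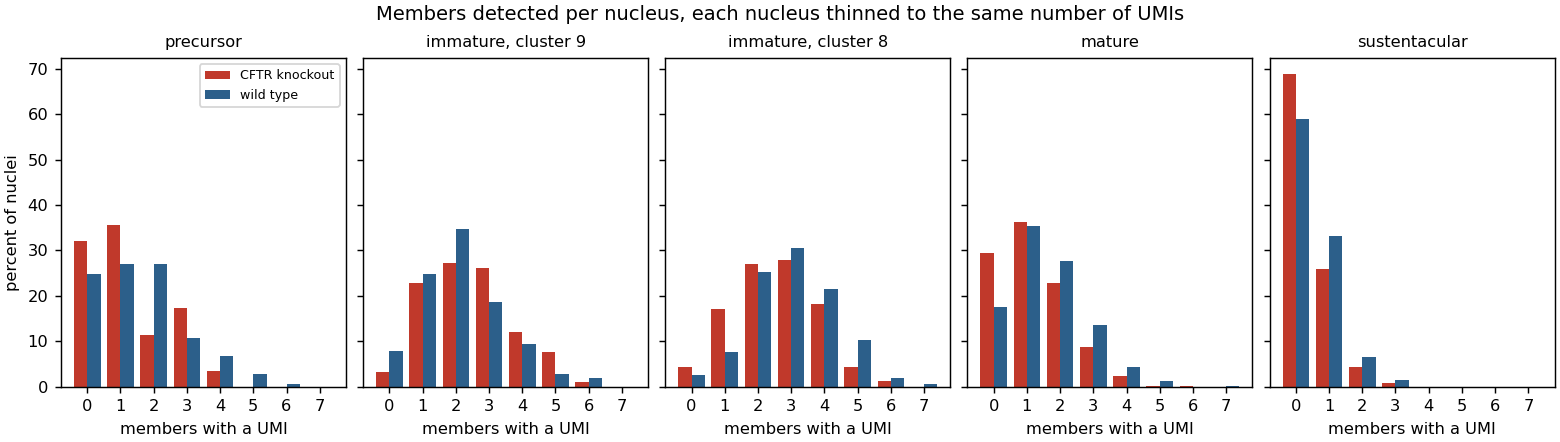
Percent of nuclei (vertical axis) by how many of the 10 genes had a UMI (horizontal axis), after thinning each nucleus to 1000 UMIs, for 4 steps of the lineage and for sustentacular-like nuclei; red bars are the CFTR knockout and blue bars the wild type library. Cluster 8 nuclei with at least 3 genes made up 51.5% in knockout nuclei and 64.7% in wild type nuclei, and sustentacular-like nuclei 0.710% and 1.37%.

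Outside the lineage DPYSL5, DCX, CRMP1 and GAP43 had low levels in most named cell types, while TUBB3, DPYSL2 and DPYSL3 had levels near those of neurons in some. The log2 ratio of lineage over all other nuclei was at 1 or above for 8 of 9 genes in the knockout library and for 8 of 10 in the wild type library, against 11.6% and 14.4% of all genes compared. It was highest for DPYSL5 (4.30 in the knockout, 3.42 in the wild type library), DCX (3.83 and 3.45), CRMP1 (3.65 and 3.13) and GAP43 (2.98 and 2.65), and lowest for TUBB3 (0.75 in both). TUBB3 and STMN2 had UMIs in each of 7 non-neuronal types, between 77.9 and 173 CPM for TUBB3 and between 65.5 and 221 CPM for STMN2 in the knockout library, and between 118 and 243 CPM and between 76.9 and 293 CPM in the wild type library. Fibroblast-like knockout nuclei, at 173 CPM (152 to 195), overlapped mature knockout neurons (147 to 177 CPM) in TUBB3. Clusters 1 (948 knockout, 33 wild type nuclei) and 21 (14 knockout, 186 wild type nuclei) stayed unnamed, with median depths of 534 and 596 UMIs in knockout and 620 and 764.5 UMIs in wild type nuclei. Cluster 1 carried 4 mature neuron markers (CNGA2, GNG13, STOML3 and S100A5) and as many respiratory secretory ones (AGR2, TFF3, BPIFA1 and WFDC2), and cluster 21 carried 7 mature neuron and 3 sustentacular markers (ERMN, CBR2 and SOX2). In clusters 1 and 21 TUBB3 stood at 693 and 956 CPM in knockout and at 1129 and 941 CPM in wild type nuclei, above its level in mature neurons. TUBB3 was not alone there. In knockout nuclei of cluster 1 STMN2 had 407 and GAP43 154 UMIs, beside 399 of TUBB3. In wild type nuclei of cluster 21 STMN2 had 144 and GAP43 53 UMIs, beside 162 of TUBB3.

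DPYSL2 had overlapping intervals in glia-like nuclei, which carried SOX10, FABP7, ERBB3 and CDH19, and in immature neurons. It stood at 190 CPM (151 to 236, 81 UMIs) in glia-like and 192 CPM (172 to 212) in immature knockout nuclei, and at 152 CPM (116 to 195, 62 UMIs) in glia-like and 138 CPM (126 to 150) in immature wild type nuclei. Fibroblast-like nuclei had 130 CPM (113 to 150) in knockout nuclei and 70.3 CPM (59.8 to 82.0) in wild type nuclei, and sustentacular-like nuclei 16.1 and 6.98 CPM. DPYSL2 had 1.56 and 1.13 UMIs per STMN2 UMI in glia-like nuclei of the knockout and wild type libraries, against 0.136 to 0.761 and 0.0515 to 0.560 over the other 6 non-neuronal types. The part of free RNA in these levels was not tested.

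DPYSL3 was also present outside the lineage, in fibroblast-like nuclei at 171 CPM (151 to 193) in knockout nuclei and 257 CPM (237 to 279) in wild type nuclei. Microvillar or ionocyte-like nuclei, a rare epithelial type with FOXI1, had 153 CPM (113 to 202, 49 UMIs) and 204 CPM (156 to 262, 61 UMIs). They had 2.33 and 2.65 DPYSL3 UMIs per STMN2 UMI in the knockout and wild type libraries, against 0.217 to 1.00 and 0.221 to 1.43 over the other 6 non-neuronal types. The fibroblast-like level lay above that of mature neurons in both libraries (136 CPM, 123 to 150, in knockout and 211 CPM, 198 to 225, in wild type nuclei), while the interval of the microvillar-like level overlapped that of mature neurons in both. Wild type macrophage-like nuclei held more of the genes that were low in other cell types, with GAP43 at 215 CPM (63 UMIs), DCX at 106 CPM (31 UMIs) and DPYSL5 at 109 CPM (32 UMIs), where knockout macrophage-like nuclei had 56.7 CPM (10 UMIs), 22.7 CPM (4 UMIs) and 34.0 CPM (6 UMIs). The cause was not tested.

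**Figure D4:**
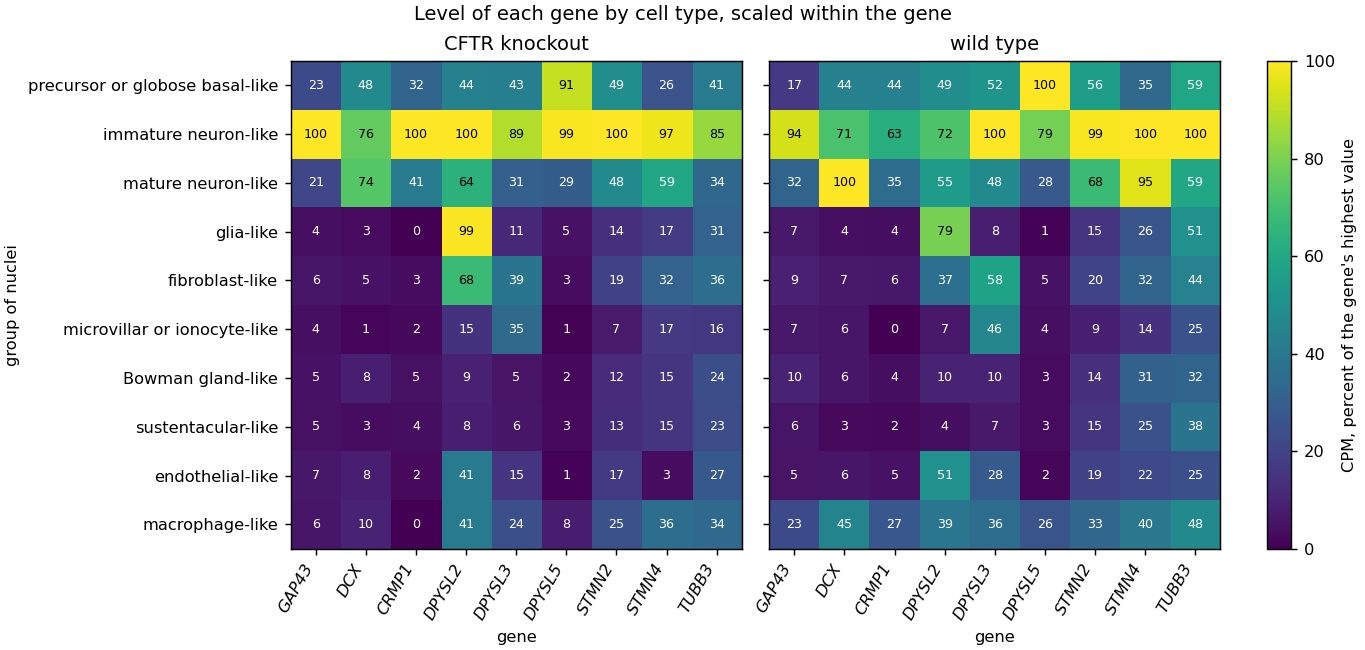
Level of 9 genes (columns) in 10 groups of nuclei (rows) as a percent of each gene's highest CPM over both libraries, for the CFTR knockout library at the left and the wild type library at the right. Most columns are brightest in immature neuron-like nuclei, whereas DPYSL2 is bright in glia-like nuclei too (190 CPM in the knockout, 152 CPM in the wild type library).

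The genes were lower in the knockout library over all nuclei, with a median nearer to 0 in immature neurons. Log2 ratios of knockout over wild type had a median of -0.67 over all nuclei, with 9 of 10 genes below 0, where 40.1% of all genes compared were below 0 and their median was 0.10. Lineage nuclei were 27.6% of knockout nuclei and 42.8% of wild type nuclei, and the part of that gap in the ratios over all nuclei was not tested. Within precursors the median of the 9 genes was -0.19, within the immature class 0.09 and within the mature class -0.51, beside medians over all genes of 0.05, 0.04 and 0.07. In the immature class 6 of 9 ratios were above 0, where 53% of all genes compared were, and in the mature class 6 of 9 were below 0, where 42.9% were. None of the 9 genes reached a log2 ratio of 1 in size in the precursor, immature or mature class. Among all genes compared, 4.11% of those in precursors were at 1 or above and 3.81% at -1 or below. A ratio of 1 or above was found for 2.95% and a ratio of -1 or below for 6.46% of all genes in the immature class, and for 5.21% and 3.29% in the mature class.

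In mature nuclei TUBB3, STMN4, DPYSL3, GAP43, STMN2 and DCX were lower in the knockout library. TUBB3 stood at 162 CPM (147 to 177) in knockout and 285 CPM (269 to 301) in wild type mature nuclei, a log2 ratio of -0.82 (-0.97 to -0.66). The part of free RNA in these TUBB3 levels was not tested. GAP43 stood at 202 CPM in knockout and 308 CPM in wild type mature nuclei, a log2 ratio of -0.61 (-0.75 to -0.47). The ratios of STMN4 (-0.68), DPYSL3 (-0.63), STMN2 (-0.51) and DCX (-0.44) had intervals below 0 as well, while DPYSL2 was higher, at 0.23 (0.03 to 0.43), and the intervals of CRMP1 and DPYSL5 held 0. The mature class was made of different clusters in the libraries: cluster 2 was 13.5% of knockout and 85.0% of wild type mature nuclei, and cluster 3 the remainder. State and library cannot be told apart in clusters split this way. Within cluster 2 the median of the 9 genes was -0.25 and within cluster 3 it was -0.46, and TUBB3 was lower in the knockout library in both, at -0.94 (-1.26 to -0.63) and -0.86 (-1.16 to -0.54). GAP43 in cluster 2 was at -0.16 (-0.40 to 0.07), an interval that holds 0. DPYSL5, near 0 in the mature class as a whole, was higher in the knockout library in both clusters, at 0.80 (0.52 to 1.08) and 0.69 (0.07 to 1.37).

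In immature nuclei the pooled ratio hid opposite values. GAP43 was at 0.10 (0.01 to 0.18) over the class but at -0.27 (-0.36 to -0.18) in cluster 8 and at -0.03 (-0.26 to 0.20) in cluster 9. Cluster 9, where GAP43 was lower than in cluster 8, was 17.4% (14.2% to 20.8%) of immature knockout nuclei and 34.4% (31.0% to 37.9%) of immature wild type nuclei. The part of these shares in the class ratio was not tested. STMN2 was at 0.01 over the class, at -0.28 (-0.38 to -0.18) in cluster 8 and at 0.24 (0.05 to 0.42) in cluster 9. TUBB3 was at -0.24 (-0.37 to -0.12) over the class, at -0.58 (-0.73 to -0.44) in cluster 8 and at 0.28 (0.04 to 0.53) in cluster 9. The median over the 9 genes was -0.27 in cluster 8, with 5 of 9 below 0 where 42.8% of all genes compared were, and 0.24 in cluster 9, with 7 of 9 above 0 where 47.5% were. The median over the whole immature class turned to -0.18 when each library was clustered on its own. In that run 108 wild type nuclei with TEX15 and PURG among their top genes stayed unnamed, at a relative depth of 3.86. They were thus outside the immature class, and their part in the change was not tested.

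CRMP1, DPYSL2 and DPYSL5 had the highest ratios of knockout over wild type in the immature class. CRMP1 stood at 139 CPM (123 to 157) in knockout and 87.0 CPM (77.8 to 97.0) in wild type immature nuclei, a log2 ratio of 0.67 (0.43 to 0.91), and of 1.03 (0.53 to 1.51) in cluster 9, where 4.97% of genes were at 1 or above. DPYSL2 had a ratio of 0.47 (0.28 to 0.67) and DPYSL5 of 0.32 (0.19 to 0.45) in the immature class. DPYSL3, of the same family, was lower in the knockout library, at -0.17 (-0.30 to -0.05). In precursors the intervals of 7 of 9 genes held 0, with GAP43 higher in the knockout library at 0.43 (0.07 to 0.78) and TUBB3 lower at -0.53 (-0.86 to -0.21). The share of all genes with an interval that held 0 there was not counted.

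Other measures moved with the library in the same classes. In nuclei outside the lineage TUBB3 had a log2 ratio of -0.55 (-0.65 to -0.45) and GAP43 of -0.53 (-0.69 to -0.37). DPYSL3 was at -0.90 (-1.05 to -0.75) and STMN2 at -0.22 (-0.32 to -0.11) there. These ratios pool types whose shares differed between the libraries. Cluster 1 held 948 knockout and 33 wild type nuclei, and respiratory ciliated-like nuclei numbered 463 and 32. Mitochondrial transcripts were 0.835% of UMIs in knockout and 2.85% in wild type mature nuclei, and 0.676% and 1.65% in immature nuclei. The summed markers of respiratory secretory cells, of which 6 of 7 had a UMI in knockout nuclei and 5 of 7 in wild type nuclei, reached 1094 to 1340 CPM over the 3 stages of the knockout library and 189 to 251 CPM over those of the wild type library. The part of these measures in the ratios was not tested.

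**Figure D5:**
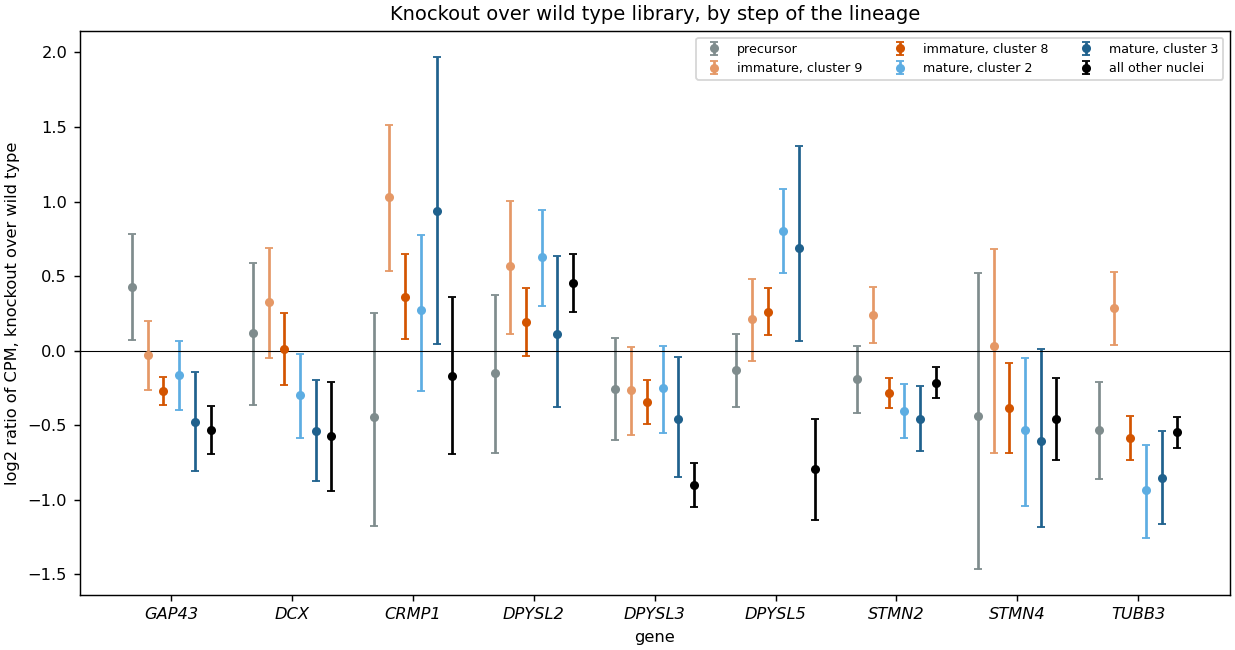
Log2 ratio of CPM of the CFTR knockout library over the wild type library with its 95% interval (counting error only) for 9 genes, by step of the lineage (colours) and in all other nuclei (black); 0 is no difference. TUBB3 lies below 0 in cluster 8 (-0.58), in both mature clusters (-0.94 and -0.86) and outside the lineage (-0.55), and CRMP1 in cluster 9 lies at 1.03.

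The levels of the 9 genes were compared over 20 profiles, 10 groups of nuclei in each of the libraries, as a description across nuclei that share libraries and depth. The closest pair was GAP43 and CRMP1 (Pearson r of log2(CPM + 20) of 0.94), and the least alike was DPYSL2 and DPYSL5 (0.46). GAP43, DCX, CRMP1, DPYSL5 and STMN2 had pairwise values between 0.87 and 0.94, whereas DPYSL2 reached at most 0.61 with any other, its value with STMN2. Among all other named genes with at least 200 UMIs, FAM171B and the kinesin KIF5C (0.96 each) were most like the mean of the 9 genes, followed by LRRC49, IGDCC3 and NCAPG2 (0.95 each). KIF5C and ARPP21 were most like GAP43 (0.97 each), MAST1 and ADD2 most like DCX (0.98 each), CELF3 and TVP23A most like CRMP1 (0.97 and 0.96), and LHX2 and PLPPR3 most like DPYSL5 (0.98 and 0.97). UNCX and IGDCC3 were most like STMN2 (0.97 and 0.95), SLC45A1 and DLGAP3 most like STMN4 (0.93 and 0.92), and FAM171B and SEPT5 most like TUBB3 (0.90 and 0.89). DPYSL2 and DPYSL3 had looser matches, JAM3 and SLCO3A1 for DPYSL2 (0.89 and 0.88) and ROBO2 and ARNT2 for DPYSL3 (0.89 and 0.87).

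Other microtubule genes of neurons were, as a list, close to all genes in the wild type library, while single members differed widely between stages. Of 34 listed, 30 had at least 20 UMIs, and 22 of 30 in the knockout library and 18 of 30 in the wild type library were lower in mature than in immature nuclei, where 51% and 55% of all genes were. Those at -1 or below were 4 of 30 and 3 of 30, where 7.81% and 12.6% of all genes were. MAP2, the dendritic microtubule-associated protein, stood at 49.0 CPM in mature and 361 CPM in immature knockout nuclei, a log2 ratio of -2.88 (-3.15 to -2.62), and at 127 and 509 CPM in those of the wild type library, -2.00 (-2.14 to -1.86). MAPT, which encodes tau, had ratios of -2.30 and -1.89, and the axonal kinesin KIF5C of -1.54 and -1.05. The doublecortin-like kinase DCLK3 went the other way, at 1.57 (1.13 to 2.04) in knockout nuclei and 1.55 (1.21 to 1.91) in wild type nuclei, as did the tubulin ligase TTLL7 at 1.10 in the wild type library. From precursor to immature nuclei MAP6, which stabilises microtubules, had ratios of immature over precursor of 2.24 (1.69 to 2.85) and 1.71 (1.31 to 2.13), and NDE1, a dynein partner active in dividing cells, of -3.15 and -3.70. Between the libraries MAP2 was the one listed gene past 1 in size in mature nuclei, at 49.0 CPM in knockout nuclei and 127 CPM in wild type nuclei, -1.37 (-1.65 to -1.11).

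Among 22 other growth cone and membrane skeleton genes, 17 of which had at least 20 UMIs, 11 in knockout nuclei and 13 in wild type nuclei were lower in mature than in immature nuclei, where 51% and 55% of all genes were, and 4 and 3 of them were at -1 or below, where 7.81% and 12.6% were. RTN1, a reticulon of the neuronal endoplasmic reticulum, stood at 807 CPM in immature and 229 CPM in precursor knockout nuclei and at 929 and 227 CPM in wild type nuclei, with ratios of 1.82 (1.56 to 2.08) and 2.03 (1.83 to 2.24). The adenylyl cyclase-associated protein CAP2 was highest in precursors, with ratios of immature over precursor nuclei of -2.78 and -3.48 and of mature over immature nuclei of -2.77 and -2.83. FEZ1 also had its highest level in precursors, at -2.30 and -2.64 for immature over precursor nuclei.

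The semaphorin pathway that acts on the collapsin response mediator proteins was split. Of 24 listed genes with enough UMIs in the knockout library and 23 in the wild type library, 15 in each were lower in mature than in immature nuclei, where 51% and 55% of all genes were. At -1 or below were 6 of 24 and 3 of 23, where 7.81% and 12.6% of all genes were, so the wild type count was near the background. The receptor subunit NRP2 stood at 176 CPM in immature and 31.0 CPM in precursor knockout nuclei and at 287 and 59.8 CPM in those of the wild type library, with ratios of 2.51 (1.82 to 3.28) and 2.26 (1.87 to 2.68). The ligand SEMA3A stood at 159 CPM in mature and 691 CPM in immature knockout nuclei and at 155 and 602 CPM in wild type nuclei, with ratios of -2.12 and -1.96. FYN, a kinase of the same pathway, had ratios of -2.31 and -1.94. The receptor subunit PLXNA4 was higher in mature nuclei, at 234 CPM against 84.1 CPM in immature knockout nuclei and at 374 CPM against 91.5 CPM in immature wild type nuclei, ratios of 1.47 (1.22 to 1.73) and 2.03 (1.86 to 2.20). NRP2 stood at 63.6 CPM in knockout and 148 CPM in wild type mature nuclei, -1.22 (-1.46 to -0.98).

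Neuronal RNA-binding proteins and transcriptional regulators, 16 listed and 14 with enough UMIs, were lower in mature than in immature nuclei in 12 cases in knockout nuclei and 10 in wild type nuclei, where 51% and 55% of all genes were. At -1 or below were 3 and 4 of 14, where 7.81% and 12.6% of all genes were. ELAVL2, an RNA-binding protein of neurons, stood at 12.9 CPM in mature and 132 CPM in immature knockout nuclei and at 37.1 and 191 CPM in those of the wild type library, with ratios of -3.36 (-3.89 to -2.86) and -2.36 (-2.61 to -2.11). ELAVL4, of the same family and known to bind GAP43 transcripts in rodents, stood at 140 CPM in mature and 638 CPM in immature knockout nuclei, -2.18 (-2.35 to -2.02). EBF3, a transcription factor of the olfactory lineage, was higher in immature than in precursor nuclei, at 1.70 (1.44 to 1.96) in knockout nuclei and 1.32 (1.14 to 1.52) in wild type nuclei. RBFOX1 was lower in immature than in precursor nuclei, at -4.20 and -2.73.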

How the data were processed

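Single-nucleus RNA was measured in 1 CFTR knockout and 1 wild type library. The deposited UMI counts are whole numbers without normalization, 1 value per gene and barcode, and no barcode had under 500 UMIs. The submitters' processing notes name Cell Ranger, Seurat 4.0 and R 4.0.2. Aligner, genome build, annotation and use of strand: not given in the sources used here. Tables were assigned to genotypes by the ending of the sample titles. The knockout library held 6054 barcodes and 16623086 UMIs and the wild type library 4715 barcodes and 18731495 UMIs. Of 25880 genes, 8256 had no symbol and 1029 of these were given one from a table of gene names.

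Nuclei with under 200 genes (1 wild type) and those with the highest Scrublet scores, at 0.8% per 1000 nuclei (293 knockout, 178 wild type), were removed, since Scrublet's own threshold marked 1 nucleus in each library. Each nucleus was scaled to 10000 UMIs before the log; 2000 variable genes, without CFTR, mitochondrial genes and the 10 members, gave 30 principal components, 15 neighbours and Leiden clusters at resolution 1, without integration (scanpy 1.11.5, Python 3.11.15). Names came from 22 marker lists; a name needed 3 markers, each at least 1 log2 unit above the median cluster, in at least 5% of nuclei and at 50% of its highest level, and a relative depth of 0.333 or more. Names are rebuilt, not the authors'. Diffusion pseudotime used the same components.

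UMIs were summed per class and library and given as CPM, with exact Poisson intervals for levels, exact conditional binomial intervals for ratios and Clopper-Pearson intervals for shares (95%). No test was made. Genes with at least 20 UMIs over both groups of a comparison were compared, a gene at 0 in one being set to 3 UMIs. All 10 members are named; of the related lists, genes past 1 in size were named, at most the 3 highest and 3 lowest per comparison, and similar profiles were ranked by Pearson r. The members and lists were chosen with earlier results of these data known. Alternatives were other resolutions, stages, depth and doublet filters, scalings (edgeR 4.0.16 TMM, DESeq2 1.42.0 size factors), UMI minimums and bins. The interval method was tested on simulated data.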

Additional observations from a re-analysis of the deposited data

Results flagged for a closer look

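For 3 genes the log2 ratio of the knockout over the wild type library had opposite signs at different steps of the lineage, each with a 95% counting interval that left out 0. GAP43 was at 0.43 in precursors, against -0.27 in cluster 8 and -0.61 in mature nuclei. STMN2 was at 0.24 in cluster 9, against -0.28 in cluster 8 and -0.51 in mature nuclei. TUBB3 was at 0.28 in cluster 9, against -0.53 in precursors, -0.58 in cluster 8 and -0.82 in mature nuclei. With 1 library per genotype the difference between steps was not tested, and counting intervals do not cover variation between animals. The knockout nuclei of cluster 9 numbered 93 with a median of 3076 UMIs, and the wild type nuclei 258 with a median of 4685.5 UMIs.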

How the results depend on the processing

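No paired analysis was possible because each genotype had 1 library and the labels pair nothing. Over the alternatives run, the number of genes highest in the immature stage stayed between 8 and 10 in the knockout library and between 5 and 8 in the wild type library. The median of mature over immature nuclei ranged from -1.30 to -0.95 in the knockout library; it was -1.07 with each nucleus staged alone and -0.95 with cluster 2 as the mature stage. In the wild type library it ranged from -1.05 to -0.39, with -1.01 when each library was clustered on its own, -0.99 with no doublets removed, -0.96 as the mean of per-nucleus fractions, -0.39 with cluster 9 alone and -1.05 with cluster 8 alone as the immature stage. The median of knockout over wild type in immature nuclei changed sign: separate clustering of the libraries gave -0.18, no doublets removed -0.061, -0.092 as the mean of fractions, 0.24 with cluster 9 alone and -0.27 with cluster 8 alone, against 0.09. That in mature nuclei stayed below 0, from -0.57 to -0.25, the value nearest 0 with cluster 2 alone. With the libraries clustered apart, 108 wild type nuclei with TEX15 and PURG among their top genes stayed unnamed, outside the immature class. With no doublets removed, 85 knockout and 205 wild type nuclei with these genes and a sustentacular marker among their top genes did so too. The part of such nuclei in the medians was not tested. The median share of immature nuclei with a UMI, 22.9% of knockout and 22.7% of wild type nuclei, was 41.2% and 38.0% after thinning to 2000 UMIs and 52.6% and 55.3% with no thinning. The number of genes highest in bins 2 to 5 was 8 to 9 in the knockout library and 6 to 8 in the wild type library. Single clusters as stages were chosen after seeing the data. For single genes, 399 of 540 alternative values lay within the counting interval of the value reported and 141 outside it, and 25 had the other sign, mainly GAP43 and STMN2 between libraries in immature nuclei and STMN4 between stages. The cause was not tested. DPYSL4 is limited by depth.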
